A study of Epimedium pubescens with 27 samples.

Results

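The genes described here are the aminoacyl-tRNA synthetases of Epimedium pubescens, a medicinal herb grown for its icariin-type flavonoids. Members were all genes whose protein description contained "--tRNA ligase" or "tRNA synthetase", which gave 176 of the 58645 genes in the expression table. Of these, 160 were synthetases by name ("--tRNA ligase") and covered all 20 amino acids. The other 16 matched through a domain name and are described apart. The series measured leaf mRNA by RNA-seq in 27 libraries from plants under 3 nitrate supplies: LN (0 mM nitrate), MN (7.5 mM) and HN (22.5 mM). Leaves were taken at 24, 36 and 48 days after treatment (DAT), named the S1, S2 and S3 stages, with 3 libraries (A, B and C) for each of the 9 groups. All groups shared the same species and organ and were labelled by nitrate supply and stage. By the study's methods the nitrate salts were changed and other salts added to balance the ions, so nitrate was not the single ion that varied. By the study's design text, LN and HN plants were visibly damaged by the S3 stage, so the late groups also differ in plant health.

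Aminoacyl-tRNA synthetases join each amino acid to its own tRNA, the step that sets the genetic code before the ribosome is reached. A plant cell makes protein in the cytosol, in chloroplasts and in mitochondria, and nuclear genes supply the synthetases of all these compartments. In Arabidopsis many of them are imported into both organelles, and some are shared between the cytosol and an organelle. In leaves, the chloroplast ribosomes that these enzymes feed make core proteins of the photosystems and the large subunit of Rubisco. The compartment given here for each gene is the one in the name of its best protein match, so it is a label carried over from another species and not a measured location. No sequences of these genes were used, so none is shown.

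Total counts per library ranged between 13609959 and 18482851 with a median of 15390848. In 7 of the 9 groups, 2 libraries resembled each other more (coefficient of variation over genes 0.144 to 0.372) than any pair of libraries from different groups (lowest value 0.47), while the other 20 pairs within groups lay between 0.492 and 0.738. The study's methods call the libraries of a group biological replicates. The labels do not say that the 3 libraries of a group came from separate plants, so p-values measure only the spread between these libraries. Main test results that depend on counting a close pair as 2 libraries are given also with each pair summed into 1, which leaves 20 libraries. In those fits no member reached an adjusted p under 0.05 in any comparison, and the lowest was 0.0557. Counts of genes whose groups do not overlap, summed FPKM and ratios were not recomputed in this way. HN S2, MN S2 and HN S3 each hold a close pair, so a separation there counts similar libraries as 2. Leaf marker genes, 57 chlorophyll a-b binding proteins and Rubisco small subunits, summed to 19953 FPKM or more in every library. Root markers, the Casparian strip membrane proteins, summed to at most 0.692 FPKM. FPKM counts fragments per unit of gene length and of library size, so that levels can be compared between genes.

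Under a mean of 1 FPKM lay 85 of the 160 synthetase genes. Of these 85, 38 had no count in any library, and the other 47 had counts. Those without a count included all 5 loci whose best protein match was bacterial. The remaining 75 genes had a mean FPKM of 1 or more, with a median of 14.5 FPKM, and 47 of these 75 reached 10 FPKM. The loci under 1 FPKM were shorter in gene length, with a median of 1011 bases against 1940 bases for the 75 expressed loci. By name, 57 synthetases belonged to an organelle (39 to chloroplast and mitochondrion together and 18 to the mitochondrion), 64 to the cytoplasm, and 39 carried no compartment. Among those with 1 FPKM or more, 38 were organelle-named, 23 were cytoplasm-named and 14 carried no compartment. Summed over all genes, the organelle-named synthetases held 50.4% of the synthetase FPKM, the cytoplasm-named ones 28.4% and those with no compartment 21.2%.

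Each amino acid had at least 1 expressed synthetase, and for most of them 1 or a few loci carried the level. The summed mean level was highest for methionine (145 FPKM), lysine (144 FPKM) and glycine (125 FPKM) and lowest for glutamine (33.0 FPKM) and histidine (33.8 FPKM). The gene with the highest level was Ebr04G018660, named glycine--tRNA ligase, mitochondrial 1 (chromosome 4, 136111505 to 136127986, plus strand), with a mean of 115 FPKM, which was 92.5% of all glycine synthetase FPKM. All glycine, valine and threonine loci were organelle-named, and no cytoplasm-named gene for these amino acids was in the table. The names therefore cannot tell which of these loci supply the cytosol. All of them count as organelle-named in the sums, ratios and medians below. Arginine was also carried mostly by 1 organelle-named gene, Ebr05G011220, with 37.2 FPKM or 96.4% of the arginine sum, while the cytoplasm-named Ebr02G074550 reached only 0.204 FPKM. Methionine was led by Ebr03G071970 (70.2 FPKM), named only as a probable methionine--tRNA ligase, and serine by Ebr01G011550 (49.2 FPKM), with no compartment. Lysine had the most loci, 21, of which 10 reached 1 FPKM, and its leading gene was the cytoplasm-named Ebr02G060580 (40.5 FPKM).

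The distance between the leading genes of the compartments differed between amino acids. Alanine had the organelle-named Ebr01G047730 at 42.5 FPKM beside Ebr02G072750, with no compartment, at 41.8 FPKM. Isoleucine had the organelle-named Ebr03G018170 at 27.6 FPKM and the cytoplasm-named Ebr03G067710 at 21.5 FPKM. Glutamate had the organelle-named Ebr04G065610 at 31.1 FPKM and a cytoplasm-named gene at 24.4 FPKM, which is 1 of 17 members whose gene model came from transcript assembly. Histidine had only 2 loci, the organelle-named Ebr06G008160 (20.4 FPKM) and the cytoplasm-named Ebr05G007870 (13.4 FPKM). Aspartate had the cytoplasm-named Ebr04G066980 at 22.5 FPKM and the organelle-named Ebr02G045670 at 7.36 FPKM. Tyrosine had the cytoplasm-named Ebr06G054420 at 24.4 FPKM and the organelle-named Ebr01G057140 at 11.1 FPKM. Glutamine had no organelle-named gene, and its leading gene was Ebr04G019910 (16.8 FPKM). As background, plant organelles make glutaminyl-tRNA by charging the tRNA with glutamate and amidating it, so they need no glutamine enzyme.

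**Figure D1:**
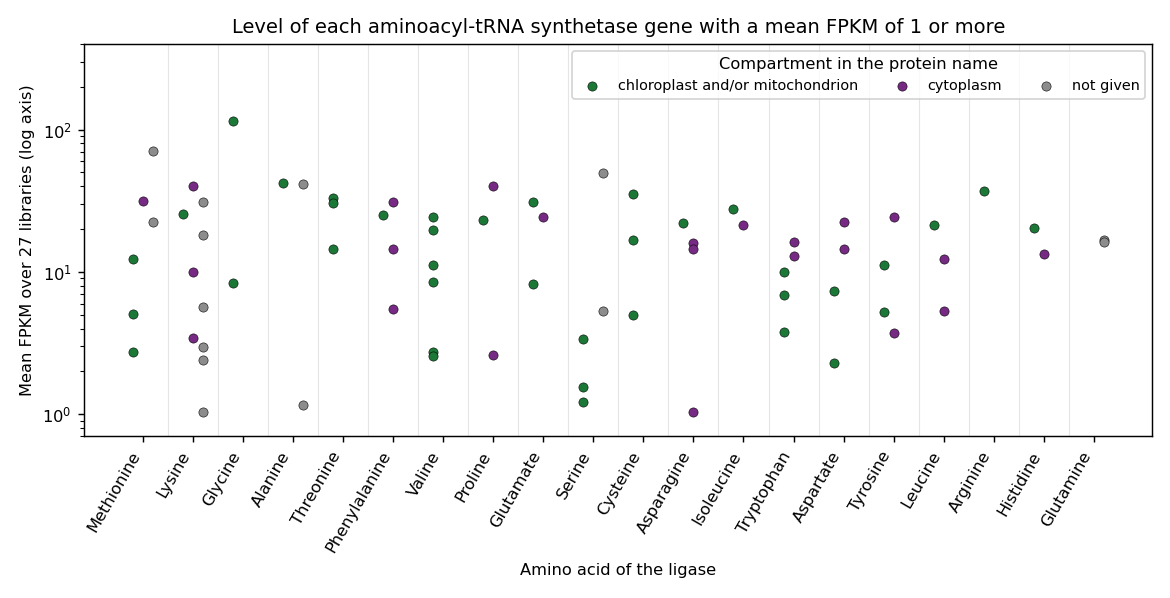
Mean FPKM over 27 libraries (log axis) of the 75 synthetase genes at 1 FPKM or more, by amino acid in the order of summed level, with colour for the compartment in the protein name. The mitochondrion-named glycine gene stands highest at 115 FPKM, and at this level glycine, valine, threonine, cysteine and arginine have organelle-named genes only.

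The spread between libraries was smaller for expressed synthetases than for expressed genes in general. At a mean of 10 FPKM or more, the median coefficient of variation over the 27 libraries was 0.230 for 47 synthetases and 0.322 for all 9297 genes. At 1 FPKM or more it was 0.301 for 75 synthetases and 0.457 for all 20895 genes. These are descriptions with no test. The steadiest was Ebr04G035690, the homolog of the chloroplast and mitochondrial cysteine enzyme CPS1 (mean 35.1 FPKM, coefficient of variation 0.125). Among those at 10 FPKM or more the least steady was Ebr02G009890, a mitochondrion-named valine locus (0.536), chosen here after its values were seen. It lies on chromosome 2 from 74498613 to 74499249 and is followed on the same strand, 153 bases away, by an assembled locus (74499402 to 74500187) also named a valine enzyme. Reads of these neighbouring or of near-identical loci may have been shared between them, so their single values are uncertain.

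In HN vs MN, the organelle-named synthetases were mostly lower in HN at the S2 and S3 stages, whereas the cytoplasm-named ones lay nearer to MN. At the S2 stage, 31 of 41 tested organelle-named genes had a log2 fold change below 0 with a median of −0.51, against 14 of 26 cytoplasm-named genes with a median of −0.05 and 7 of 17 without compartment with a median of 0.02. At the S3 stage the counts were 34 of 41 (median −0.60), 21 of 25 (median −0.21) and 12 of 19 (median −0.23). At the S1 stage the organelle-named genes were balanced, with 21 of 40 below 0 and a median of −0.03, and the cytoplasm-named genes were 20 of 25 below 0 with a median of −0.23. The median over all genes tested lay between −0.026 and 0.014 in these 3 comparisons. In bulk leaves, fewer cells of a type and less RNA per cell cannot be told apart.

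No member passed the test (edgeR quasi-likelihood, Benjamini-Hochberg adjusted p below 0.05 and at least a 2-fold difference) in HN vs MN at any single stage. Of all genes it called 0.111% (S1), 0.018% (S2) and 0.0% (S3), so it found few genes of any kind. DESeq2 called 1 member at S1, 3 at S2 and 5 at S3, beside 974, 1764 and 2215 of all genes (2.71%, 4.57% and 5.79% of those with a p). At an unadjusted p under 0.05, 15 synthetases were lower and 6 higher in HN at S2, where 9.4% of all genes were lower and 8.98% higher. All 15 lower ones were organelle-named (of 41 tested). At S3, 16 were lower and 1 higher, beside 9.46% and 10.8% of all genes, and 13 of the 16 were organelle-named. At S1, 5 were lower and 1 higher, beside 4.21% and 5.1% of all genes. The lower counts with close pairs summed were 6 at S2 and 6 at S3. When each library was left out they were 10 to 21 at S2 and 6 to 23 at S3. Without HN S3 replicate A or B the S3 count was 7 or 6. The share of all genes in these altered fits is not given here, so these counts have no background beside them.

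**Figure D2:**
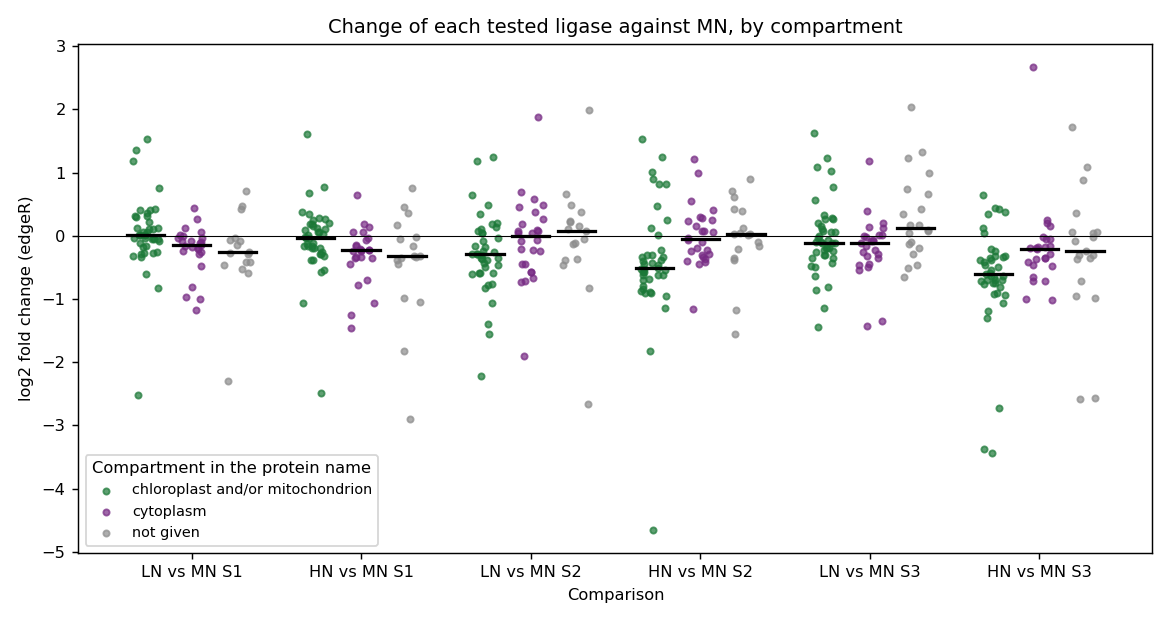
Fitted log2 fold change against MN of each tested synthetase, by comparison, with colour for the compartment in the protein name and a black bar at the median. The organelle-named genes have medians of −0.03, −0.51 and −0.60 in HN vs MN at S1, S2 and S3. In LN vs MN they have 0.01, −0.29 and −0.11.

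The FPKM values showed the same pattern, but they rescale the same counts of the same libraries and are not independent of the fits. Of the 38 organelle-named synthetases at 1 FPKM or more, 20 had all HN libraries below all MN libraries at S2 and 14 at S3, against 3 and 3 of 23 cytoplasm-named genes. Over all 75 synthetases at that level the count was 24 at S2 and 19 at S3, where 12.3% and 13.3% of all genes were lower without overlap. Higher without overlap were 11 at S2 and 3 at S3, beside 13.6% and 15.4% of all genes, and the 11 held 4 organelle-named and 4 cytoplasm-named genes. Summed FPKM of the organelle-named synthetases at S2 was 583 to 642 in HN and 792 to 825 in MN. At S3 it was 472 to 617 in HN and 629 to 922 in MN, and at S1 563 to 759 in HN and 627 to 738 in MN. The groups therefore did not overlap at S2 and S3 and did overlap at S1. The cytoplasm-named sum overlapped at S2 (388 to 424 in HN and 379 to 436 in MN) and at S3 (337 to 413 in HN and 401 to 460 in MN), and was lower in all HN libraries at S1 (338 to 354 in HN and 387 to 417 in MN).

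The ratio of the organelle-named to the cytoplasm-named sum is taken within a library, so that the scaling of the library cancels. The organelle-named sum includes all glycine, valine and threonine loci, also any that supply the cytosol. Mitochondrion-named genes were not summed apart. At S2 it was 1.51, 1.48 and 1.59 in HN libraries A, B and C and 1.82, 2.05 and 2.15 in MN libraries. At S3 it was 1.44, 1.40 and 1.49 in HN and 1.75, 1.57 and 2.01 in MN. At S1 it was 1.89, 1.62 and 2.25 in HN and 1.77, 1.59 and 1.76 in MN. The groups did not overlap at S2 and S3 and overlapped at S1. The LN ratios lay above all HN ratios at S2 (1.76, 1.75 and 1.89) and at S3 (1.85, 2.08 and 1.66). Without Ebr04G018660, an alternative added after the values were seen, the ratio was 1.3 to 1.37 in HN and 1.52 to 1.84 in MN at S2. At S3 it was 1.14 to 1.267 in HN and 1.272 to 1.67 in MN, so the S3 groups then did not overlap but lay next to each other. Leaf markers moved with this pattern at S2 but not in the same way at S3. Their sum at S2 was 20779 to 32884 FPKM in HN and 57647 to 60759 in MN, with 44 of 46 tested markers below 0 (median −1.73). At S3 the sum was 23081 to 43709 in HN and 32328 to 34346 in MN, with 23 of 46 below 0 and a median of 0.00. At an unadjusted p under 0.05 (edgeR), 9 markers were lower and 1 higher at S3, beside 9.46% and 10.8% of all genes. Their part in the result was not tested.

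**Figure D3:**
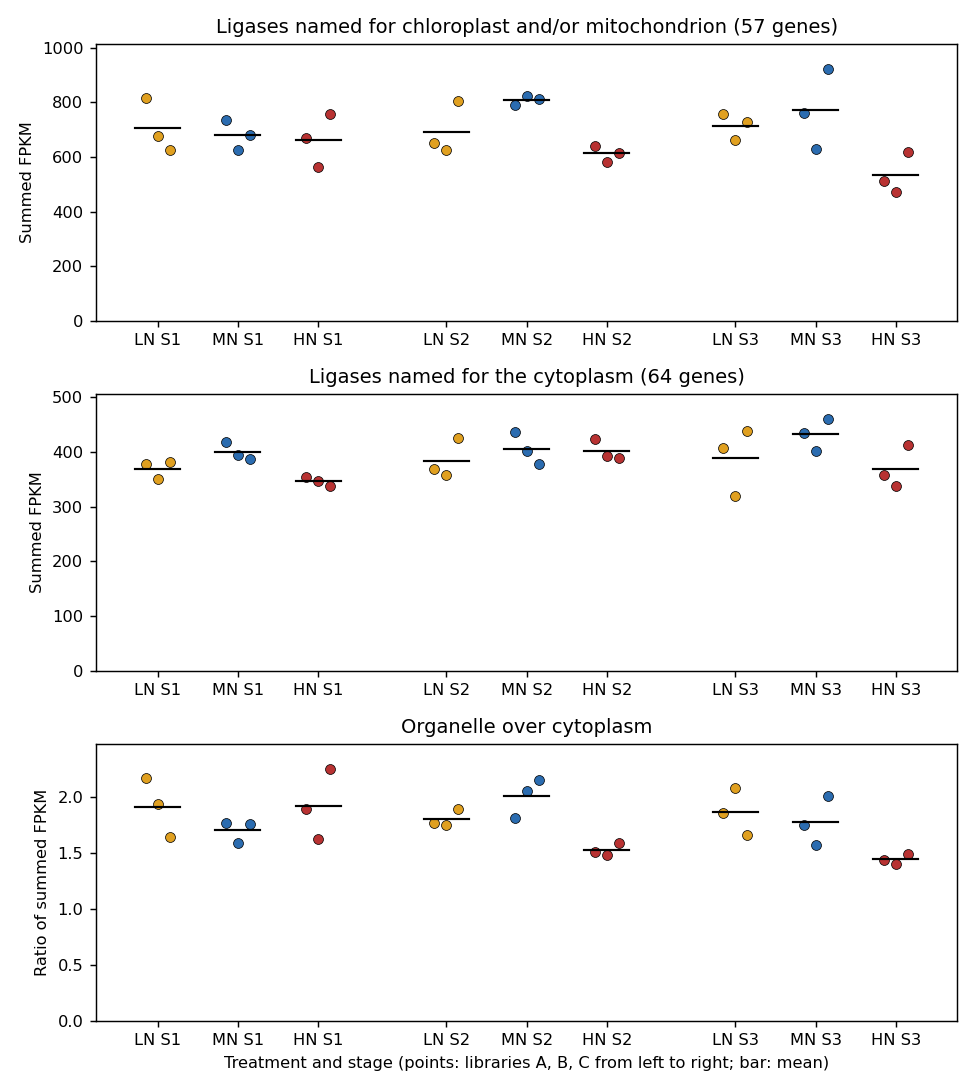
Summed FPKM per library of the organelle-named and the cytoplasm-named synthetases, and the ratio of these sums, by treatment and stage (points are libraries A, B and C, bars are means). The HN ratios at S2 (1.48 to 1.59) and S3 (1.40 to 1.49) lie below all LN and MN ratios of the same stage.

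Averaged over stages, 69 of 94 tested synthetases were below 0 in HN vs MN with a median of −0.18. By compartment, 34 of 42 organelle-named genes (median −0.34), 20 of 29 cytoplasm-named genes (median −0.11) and 15 of 23 others (median −0.08) were below 0. At an unadjusted p under 0.05, 27 were lower and 1 was higher, and 20 of the 27 were organelle-named, beside 10.3% of all genes lower and 12.4% higher. The lower count was 13 with close pairs summed and 23 to 35 when each library was left out. The share of all genes in these altered fits is not given here. Of the members, 1 passed the full test, where 2.48% of all genes did. DESeq2 called 5 members, beside 4.28% of all genes.

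The gene that passed was Ebr06G004950, a mitochondrion-named valine enzyme of low level (chromosome 6, 33038257 to 33127094, plus strand). It had 0.058 to 3.68 FPKM with a median of 1.28 in the 9 HN libraries and 1.60 to 10.9 with a median of 3.97 in the 9 MN libraries. The log2 fold change was −1.93 ± 0.51 (SE, edgeR adjusted p = 0.0408). The difference was greatest at S2, with 0.058, 0.279 and 0.419 FPKM in HN (3, 13 and 24 counts) and 1.60, 10.9 and 6.63 in MN. With close pairs summed the log2 fold change was −2.14 with an adjusted p of 0.295, and the gene was called in 12 of 27 fits that each left out 1 library. The main valine gene, Ebr03G065940 (24.2 FPKM), had −0.10 ± 0.10 (adjusted p = 0.613).

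At an adjusted p under 0.05 with no fold threshold, 4 synthetases were lower in HN, Ebr06G004950 among them, and 1.77% of all genes were lower by that rule. The other 3 differed by less than 2-fold. Ebr04G018660, the leading glycine gene, had 74.2 to 117 FPKM (median 89.1) in HN and 109.7 to 183 (median 120.0) in MN, a log2 fold change of −0.52 ± 0.12 (edgeR adjusted p = 0.0233, 0.0156 to 0.0547 when each library was left out in turn). Its HN and MN libraries did not overlap at any stage, with 88.9, 108 and 117 in HN and 144, 120.0 and 119 in MN at S1. At S2 it had 88.5, 74.2 and 82.7 in HN and 131, 109.7 and 118 in MN. At S3 it had 93.3, 89.1 and 93.2 in HN and 183, 118 and 153 in MN. This gene alone is the largest item of the organelle-named sum.

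Ebr01G061880 is the leading proline gene and is cytoplasm-named (chromosome 1, 536033451 to 536062606, plus strand). At S1 it had 22.1, 25.3 and 20.7 FPKM in HN and 40.3, 41.1 and 32.4 in MN. At S3 it had 34.6, 27.3 and 42.4 in HN and 45.7, 50.3 and 66.9 in MN. HN lay below MN in every library at these stages, and at S2 the groups overlapped (36.2, 45.1 and 43.3 in HN and 63.0, 56.0 and 43.4 in MN, where the lowest MN library was below the highest HN library). The averaged log2 fold change was −0.59 ± 0.11 (edgeR adjusted p = 0.00996, 0.00543 to 0.0259 when each library was left out in turn). Ebr03G009450, the organelle-named leucine gene, had 11.1 to 23.6 FPKM (median 18.4) in HN and 15.7 to 33.3 (median 24.2) in MN, with −0.47 ± 0.13 (adjusted p = 0.046). With close pairs summed the adjusted p was 0.281 for the glycine gene, 0.26 for the proline gene and 0.357 for the leucine gene.

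At S2, the organelle-named isoleucine gene Ebr03G018170 (chromosome 3, 145897547 to 146098291, minus strand) had 25.3, 27.3 and 26.9 FPKM in HN and 42.9, 55.6 and 45.4 in MN, with −0.87 ± 0.15 (edgeR adjusted p = 0.0794). LN libraries at S2 lay between them at 29.2, 32.8 and 33.6. The organelle-named glutamate gene Ebr04G065610 (chromosome 4, 509006785 to 509063566, minus strand) also had its highest group mean in MN at S2, with 37.8, 24.4 and 35.3 in HN and 46.1, 64.8 and 56.0 in MN (−0.79 ± 0.23, adjusted p = 0.161). In organelles this enzyme charges both glutamate and glutamine tRNAs. A cytoplasm-named aspartate gene, Ebr05G002140, lay the other way, with 17.1, 18.4 and 18.3 in HN and 9.84, 8.50 and 8.33 in MN at S2 (1.0 ± 0.16, adjusted p = 0.0686). The glutamine gene Ebr04G019910 had 22.2, 21.5 and 21.1 in HN and 11.4, 13.4 and 14.3 in MN (0.72 ± 0.15, adjusted p = 0.0946). For all of these the HN and MN groups did not overlap, and none passed the threshold. LN libraries at S2 also lay wholly above MN for the aspartate gene and wholly below MN for the isoleucine and glutamate genes. By that rule 11.1% of all genes were higher and 10.6% lower in LN at S2. For the glutamine gene LN overlapped MN.

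**Figure D4:**
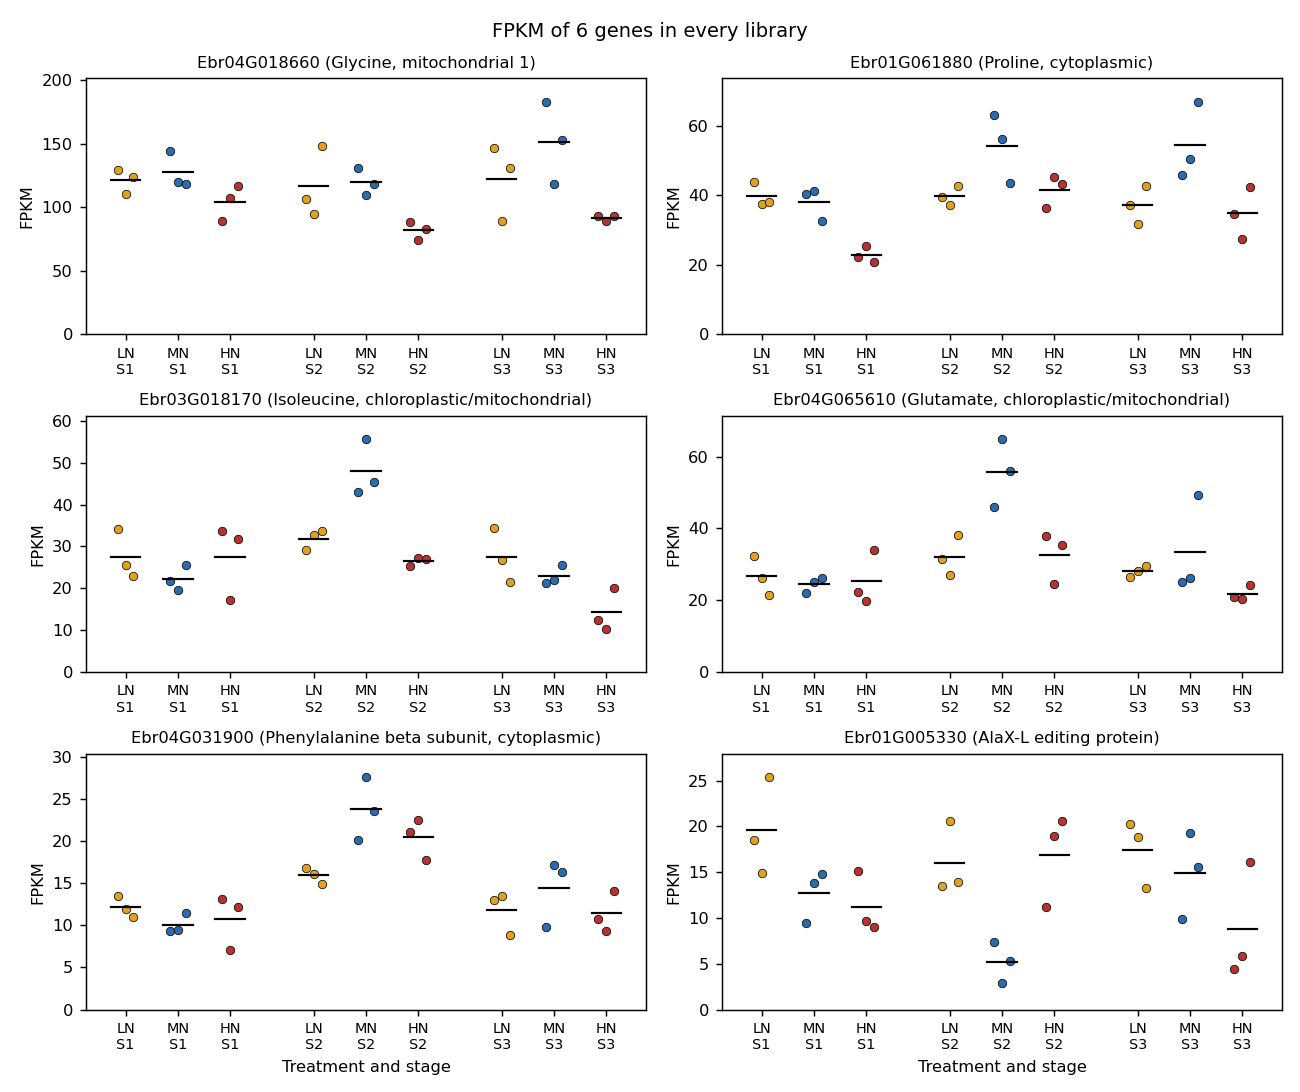
FPKM of 6 genes in every library, by treatment and stage (points are libraries A, B and C, bars are means). The glycine gene Ebr04G018660 is lower in HN than in MN at each stage, and the isoleucine and glutamate genes have their highest group means in MN at S2 (42.9 to 55.6 and 46.1 to 64.8 FPKM).

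In LN vs MN, no member passed the test at S1, S2 or S3 or averaged over stages, where 0.00918%, 0.0%, 0.0% and 0.14% of all genes did. DESeq2 called 2, 4, 0 and 1 members in these comparisons, beside 2.05%, 2.88%, 0.56% and 1.37% of all genes. Both treatments were set against the same MN libraries, so LN vs MN and HN vs MN are not independent. At S2, 49 of 83 tested synthetases were below 0 (median −0.16), with 28 of 40 organelle-named genes below 0 (median −0.29) and 13 of 26 cytoplasm-named genes (median −0.01). At an unadjusted p under 0.05, 16 were lower and 6 higher at S2, beside 6.52% and 6.74% of all genes, and 9 of the 16 were organelle-named. The lower count with close pairs summed was 2, and it was 9 to 15 when each library was left out, with 10 when LN S2 replicate A and 9 when replicate B was left out. The higher count was 1 to 8, with 2 when MN S2 replicate B was left out and 1 when LN S2 replicate A was. For fits with close pairs summed or a library left out, the share of all genes is not given here. Of the 75 synthetases at 1 FPKM or more, 22 had all LN libraries below all MN libraries at S2 and 6 above, beside 10.6% and 11.1% of all genes. At S1 there were 3 lower and 2 higher, beside 3.82% and 4.82% of all genes, and at S3 1 lower and 1 higher, beside 2.43% and 2.26%. Averaged over stages there were 9 lower (5 to 12 when each library was left out, 5 without LN S2 replicate A) and 0 higher, beside 4.93% and 7.67%. Leaf markers at S2 were lower in LN as well, with 25736 to 40621 FPKM in LN and 57647 to 60759 in MN, and 43 of 47 below 0 (median −1.38). Their part in the result was not tested.

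The synthetases with the smallest p in LN vs MN averaged over stages were both cytoplasm-named. Ebr05G038490, an asparagine enzyme, had 13.2, 13.6 and 13.2 FPKM in LN and 25.4, 23.2 and 18.2 in MN at S2, and −0.40 ± 0.09 over the stages (edgeR adjusted p = 0.0737). Ebr06G047070, a beta subunit of the phenylalanine enzyme, had 4.15, 3.44 and 4.61 in LN and 16.3, 6.07 and 5.10 in MN at S1, with −1.09 ± 0.25 over the stages (adjusted p = 0.0846). At S3 the same gene had 3.12, 2.93 and 2.15 in LN and 13.7, 5.21 and 3.27 in MN. Its MN library A was the highest at each of these stages. At S2 the lysine gene Ebr02G053270, with no compartment, had 22.4, 25.5 and 20.9 in LN and 47.9, 35.0 and 39.1 in MN (−0.82 ± 0.18, adjusted p = 0.177), and its HN libraries (34.0, 50.6 and 40.5) overlapped MN. The organelle-named asparagine gene Ebr05G056330 had 20.9, 19.8 and 20.7 in LN and 28.4, 32.5 and 32.8 in MN at S2 (−0.61 ± 0.14, adjusted p = 0.188).

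Between stages, averaged over treatments, more synthetases were higher than lower in S2 vs S1. All genes leaned the same way, with 9.76% higher and 7.36% lower at an edgeR adjusted p under 0.05. Of 94 tested synthetases, 55 were above 0 with a median of 0.07, against a median of 0.021 for all genes. Of the members, 3 passed the full test, beside 10.2% of all genes, so their share was below the background. Ebr03G074100, a low mitochondrion-named glycine locus, had 0.098 to 1.25 FPKM (median 0.663) at S2 and 0 to 0.639 (median 0.077) at S1, with a log2 fold change of 2.75 ± 0.71 (edgeR adjusted p = 0.0124). Ebr02G034320, a low cytoplasm-named asparagine locus, had 0 to 4.83 (median 0.775) at S2 and 0 to 2.07 (median 0.079) at S1, with 2.93 ± 0.99 (adjusted p = 0.0457), and was called in 9 of 27 fits that each left out 1 library, at an adjusted p of up to 0.125. The assembled valine locus beside Ebr02G009890 fell, with 2.14 to 8.17 (median 5.79) at S2 and 6.68 to 16.5 (median 9.05) at S1, and −1.10 ± 0.31 (adjusted p = 0.0183, called in 25 of the 27 such fits). None of the 3 passed with close pairs summed, at adjusted p of 0.0938, 0.239 and 0.17 in the order given.

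Without the fold threshold, 10 members were higher and 3 lower in S2 vs S1, beside 9.76% and 7.36% of all genes. The clearest was Ebr04G031900, the other beta subunit gene of the cytoplasmic phenylalanine enzyme (chromosome 4, 254863199 to 254949634, plus strand). It had 14.9 to 27.6 FPKM (median 20.1) at S2 and 7.02 to 13.5 (median 11.4) at S1, so the stages did not overlap, and the log2 fold change was 0.87 ± 0.14 (edgeR adjusted p = 0.000828, and 0.0557 with close pairs summed). The alpha subunit gene Ebr04G030870 (31.1 FPKM) had 0.00 ± 0.12 (adjusted p = 1). The enzyme works as a tetramer of both subunits. The histidine gene Ebr05G007870 rose too, with 13.0 to 19.5 FPKM at S2 and 8.66 to 13.5 at S1 (0.45 ± 0.10, adjusted p = 0.00626), as did the glutamate gene Ebr04G065610 (0.62 ± 0.15, adjusted p = 0.00757) and the proline gene Ebr01G061880 (0.48 ± 0.11, adjusted p = 0.00677). For these 3 genes the adjusted p with close pairs summed was 0.114, 0.0902 and 0.102 in that order. The tryptophan gene Ebr05G000680 fell, with 6.47 to 14.4 FPKM at S2 and 11.9 to 17.7 at S1 (−0.60 ± 0.17, adjusted p = 0.0176, and 0.204 with close pairs summed).

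In S3 vs S1, no member passed the full test, beside 2.18% of all genes, and DESeq2 called 1, beside 4.21%. At an unadjusted p under 0.05, 10 synthetases were higher and 6 lower, beside 11.9% and 7.81% of all genes. The cytoplasm-named aspartate gene Ebr04G066980 was higher without the fold threshold, as were 1.83% of all genes, with 21.9 to 30.6 FPKM (median 24.6) at S3 and 16.4 to 24.9 (median 18.9) at S1. Its log2 fold change was 0.42 ± 0.09 (edgeR adjusted p = 0.0159, and 0.211 with close pairs summed). The test of whether treatment differences differed between stages called no member, beside 0.175% of all genes, with 14 of 94 synthetases at an unadjusted p under 0.05 beside 15.8% of all genes. DESeq2 called 6 members, beside 3.81% of all genes. The difference between S1 and the later stages in HN vs MN did not pass the test in any single member.

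Of the 16 members that are not synthetases by name, 3 were grouped by their names as linked to tRNA editing. Their activity was not measured. Ebr04G051920 carries a prolyl-tRNA synthetase associated domain (mean 30.2 FPKM), and Ebr01G005330 (13.7 FPKM) and an assembled locus (1.59 FPKM) are named alanyl-tRNA editing protein AlaX-L, from a family that in microbes removes wrong amino acids from alanine tRNA. At S2 both of the more abundant genes were lowest in MN. Ebr01G005330 had 11.2, 19.0 and 20.5 FPKM in HN and 7.39, 2.94 and 5.35 in MN (1.67 ± 0.42, edgeR adjusted p = 0.133). In LN it had 13.5, 20.6 and 13.9 against the same MN libraries (1.61 ± 0.39, adjusted p = 0.207). Ebr04G051920 had 28.7, 29.7 and 25.2 in HN and 20.2, 15.3 and 16.9 in MN (0.66 ± 0.17, adjusted p = 0.14). In LN it had 30.9, 32.8 and 40.4 (1.0 ± 0.20, adjusted p = 0.153). At S3 Ebr01G005330 had 4.46, 5.80 and 16.2 in HN and 9.89, 19.3 and 15.6 in MN, which overlap.

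Another 9 members were CURVATURE THYLAKOID 1 genes, which bend thylakoid membranes and charge no tRNA. They matched only because their shared domain is named after a cyanobacterial aminoacyl-tRNA synthetase. They were far more abundant than any synthetase, with means of 2291 FPKM for Ebr05G060310 (1A), 1540 for Ebr01G040160 (1B), 545 for Ebr06G015920 (1D) and 382 for Ebr05G000300 (1C). Another 4 loci of the family had no count, and Ebr06G019240 had 0.630 FPKM. Their sum at S2 was 3611 to 4914 FPKM in HN and 6075 to 7151 in MN, and in LN 3884 to 4813. At S3 it was 2888 to 3233 in HN and 3847 to 5136 in MN, and in LN 2381 to 5519. At S1 the HN (4187 to 7697) and MN (3776 to 6523) sums overlapped. The remaining 4 members shared only a domain name and had at most 0.17 FPKM.

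Other genes that form, protect or deliver charged tRNA were taken from a list of 57 genes. Averaged over stages in HN vs MN, 23 of 35 tested were below 0 (median −0.26), with 12 lower and 3 higher at an unadjusted p under 0.05, beside 10.3% and 12.4% of all genes, and 1 passed the full test, beside 2.48%. The genes named here were chosen after their values were seen. That 1 gene, Ebr06G005810, encodes elongation factor 1-alpha, which carries charged tRNA to the cytosolic ribosome. It rose, with 10.5 to 209.8 FPKM (median 54.9) in HN and 10.3 to 63.9 (median 23.9) in MN (1.24 ± 0.32, edgeR adjusted p = 0.0359). At S3 it had 209.8, 204 and 50.7 in HN and 19.2, 32.4 and 10.3 in MN, and HN libraries A and B at that stage are a close pair. The adjusted p with close pairs summed was 0.334. Of the 10 tested genes of this factor, 7 were below 0. Ebr02G024330 (mean 856 FPKM) had −0.36 ± 0.14 (adjusted p = 0.128) and Ebr01G050880 (291 FPKM) had −0.49 ± 0.16 (adjusted p = 0.0746). Ebr02G035030, the GCN2 kinase that senses uncharged tRNA, was lower in HN by less than 2-fold (−0.72 ± 0.20, adjusted p = 0.0481, and 0.338 with close pairs summed). At S3 it had 1.45, 1.38 and 3.13 in HN and 5.21, 3.80 and 4.57 in MN.

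Of the same list, several genes that serve organelle translation had values below MN in HN at S2 or S3, and none of them passed the test. The glutamyl-tRNA amidotransferase genes, which turn glutamate on organelle glutamine tRNA into glutamine, were below 0 in 7 of 7 tested at S2 (median −0.43) and 6 of 7 at S3 (median −0.86). At an unadjusted p under 0.05 (edgeR), 2 of them were lower and 1 higher at S3, beside 9.46% and 10.8% of all genes. In LN vs MN at S2, 5 of the 7 tested amidotransferase genes were below 0 as well (median −0.36). The amidotransferase subunit B gene Ebr06G017560 had 47.5, 44.6 and 68.1 FPKM in HN and 101, 81.6 and 106 in MN at S3 (−0.86 ± 0.24, edgeR adjusted p = 0.149). The methionyl-tRNA formyltransferase gene Ebr03G041550, which makes the organelle initiator tRNA, had 5.02, 4.58 and 5.14 in HN and 11, 13.2 and 18.0 in MN at S3 (−1.53 ± 0.26, adjusted p = 0.105). At S2 its log2 fold change was 0.06. Chloroplast elongation factor Tu, Ebr03G053260, had 426, 493 and 513 in HN and 709, 866 and 829 in MN at S2 (−0.76 ± 0.17, adjusted p = 0.112). In LN at S2 it had 462, 425 and 582, also below all MN libraries. The MN libraries at S2 were the highest of all 27 for this gene. MN had 593, 375 and 399 at S1 and 422, 479 and 415 at S3. In these 3 genes all HN libraries lay below all MN libraries at the stage given, as in 12.3% (S2) and 13.3% (S3) of all genes at 1 FPKM or more.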

How the data were processed

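Leaf RNA-seq libraries of 9 groups (3 each) were analysed from 2 deposited tables of the series. The authors aligned reads with HISAT2 2.0.5, assembled further gene models with StringTie 1.3.3b and counted reads with featureCounts 1.5.0-p3, per the submitters' processing notes. Libraries were made with a NEBNext Ultra kit. The strand setting, build name and annotation version were not given in the sources used here. It is therefore unknown how reads of overlapping genes were assigned. No sequences were compared, so near-identical genes were not identified, and reads may be shared between them. The table holds raw counts and FPKM as deposited by the authors. FPKM matched the counts scaled by gene length and library total.

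Counts were tested with edgeR 4.0.16 (R 4.3.3) by quasi-likelihood F tests with TMM scaling and filterByExpr, on the 6 libraries of each pair of groups, and on all 27 for averages over stages or treatments and for the interaction. Adjustment (Benjamini-Hochberg) ran over all genes tested. Calls needed an adjusted p below 0.05 with a log2 fold change of at least 1 in size (interaction: p alone). SE is the fold change divided by the square root of F. DESeq2 1.42.0, RLE scaling, no count filter, a replicate block, summed close pairs (coefficient of variation under 0.45), each library left out, 1 fit of all libraries and no fold threshold were alternatives. The fits were also run on simulated data with larger changes than most described here and less spread than between most libraries. That run therefore does not show how well the fits find differences of the size described. Tables and figures used Python 3.11.15, pandas 2.3.3 and matplotlib 3.10.9. Named genes were members called anywhere, the 2 smallest p per direction and comparison, and for each amino acid the leading gene and the leading gene of the other compartment. Members and lists were chosen with earlier results of these data known. Level differences used log2(FPKM + 1) for members at 1 FPKM or more.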

Additional observations from a re-analysis of the deposited data

Results flagged for a closer look

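Among the named genes, which alone were searched, the libraries of a treatment lay wholly on opposite sides of MN at different stages for 5 synthetases. The share of all genes that did so was not computed. In a single comparison, 5.22% to 15.4% of all genes at 1 FPKM or more lay wholly above or wholly below MN. The interaction of treatment and stage, tested with edgeR over all 27 libraries, passed the threshold for none of the 5 synthetases. Ebr02G075550, an organelle-named glutamate gene, had a log2 fold change in HN vs MN of 0.90 at S2 and −1.30 at S3 (interaction adjusted p = 0.139). At S2 it had 12.2, 9.61 and 8.13 FPKM in HN and 5.42, 4.67 and 5.74 in MN, and at S3 3.65, 2.90 and 5.97 in HN and 10.8, 10.1 and 9.56 in MN. Ebr04G019910, the leading glutamine gene, had −0.44 at S1 and 0.72 at S2 in HN vs MN (adjusted p = 0.219). Ebr02G060580, the leading lysine gene, had −0.23 at S1 and 0.41 at S2 in HN vs MN (adjusted p = 0.393). Ebr02G019280, a mitochondrion-named threonine gene, had −0.31 at S2 and 0.43 at S3 in HN vs MN (adjusted p = 0.479). Ebr05G000680, a cytoplasm-named tryptophan gene, had −0.26 at S1 and 0.70 at S2 in LN vs MN (adjusted p = 0.422).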

How the results depend on the processing

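The median log2 level difference of the 82 members at 1 FPKM or more was −0.197 in LN vs MN at S2, −0.08 at S3, and −0.234 and −0.297 in HN vs MN at S2 and S3, and over all 176 members, 43 of which have no count, it was 0.0, 0.0, 0.0 and −0.035. With DESeq2 the members called at S1, S2 and S3 numbered 2, 4 and 0 in LN vs MN and 1, 3 and 5 in HN vs MN. In the averaged comparisons DESeq2 called 1 in LN vs MN, 5 in HN vs MN, 5 in S2 vs S1, 1 in S3 vs S1, and 6 in the interaction. For all genes the largest such shift was 0 against 2215 in HN vs MN at S3. With close pairs summed, 0 members were called in HN vs MN averaged and 0 in S2 vs S1, and over all genes 0 against 710 and 95 against 2930 were called. The fit of all 27 libraries called 1 member in HN vs MN at S2, Ebr05G002140. Without the fold threshold 4 members passed in HN vs MN averaged, 13 in S2 vs S1 and 1 in S3 vs S1. Leaving out each library in turn gave 0 to 2 members in HN vs MN at S2 (2 without MN S2 replicate A), 0 to 2 in HN vs MN averaged, 2 to 5 in S2 vs S1 (5 without MN S2 replicate A or LN S3 replicate A or C), 0 to 1 in S3 vs S1 (1 without HN S1 replicate B or MN S3 replicate A) and 0 to 2 in the interaction (2 without HN S3 replicate C). The call of Ebr06G004950 in HN vs MN averaged was lost in 15 of 27 fits, without each MN library except MN S2 replicate A, each HN S2 or HN S3 library, or HN S1 replicate C. Another member was called without HN S3 replicate C, and 2 members were called without HN S1 replicate A. Replicate letters did not pair the libraries: residuals of libraries with the same letter had a mean correlation of 0.0208 (108 pairs) and those with different letters −0.0102 (216 pairs). With the replicate letter as a block, 1 member was called in HN vs MN averaged and 4 in S2 vs S1, and 0 in each pairwise comparison. For this block, the fit of all 27 libraries and the fits that left out 1 library, the share of all genes called is not given here. Nor is it given for DESeq2 in S2 vs S1. The main fits called 2.48% of all genes in HN vs MN averaged and 10.2% in S2 vs S1. Over the named genes, 843 results kept direction and side of the threshold, 40 were no longer called, 13 were newly called and 0 reversed. Most of the 843 belong to results not called in the main fits, and only called results could be lost. Of 32 alternatives each, Ebr06G004950 stayed called in 16 in HN vs MN averaged. In S2 vs S1, Ebr03G074100 stayed called in 31, the assembled valine locus in 29 and Ebr02G034320 in 12. Recomputed after the values were seen, the count of synthetases below 0 in HN vs MN was 53 to 57 at S2, 63 to 69 at S3 and 68 to 75 averaged when each library was left out. With close pairs summed, synthetases lower at an unadjusted p under 0.05 numbered 13 in HN vs MN averaged. At that p the share of all genes is not given for fits with pairs summed or a library left out. Depth limits the low loci such as Ebr03G074100 and Ebr02G034320, which had 0 counts in some libraries.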
